A study of Mus musculus with 15 samples.

Results

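Serpins of clade B are protease inhibitors that stay inside the cell, unlike most serpins, which are secreted. Inhibitory members present a flexible reactive loop as bait, and a protease that cuts the loop is trapped in an inactive complex with the serpin. In epidermis several of them are made by keratinocytes, where they restrain serine and cysteine proteases of the cornifying layers, of lysosomes and of leukocytes. In the mouse the *Serpinb* genes lie in a cluster on chromosome 1 and another on chromosome 13.

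All genes whose symbol begins with *Serpinb* were taken, which gave 25 of the 21110 genes in the deposited files. Of these, 11 lie on chromosome 1 (*Serpinb2*, *Serpinb3a*, *Serpinb3b*, *Serpinb3c*, *Serpinb3d*, *Serpinb5*, *Serpinb7*, *Serpinb8*, *Serpinb11*, *Serpinb12* and *Serpinb13*) and 14 on chromosome 13 (copies of *Serpinb1*, *Serpinb6* and *Serpinb9*). *Serpinb10* and *Serpinb6d* were not analysed here. In mm9 coordinates the measured genes span chr1:108757750-109505486 and chr13:32933961-34094663.

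RNA was sequenced from the ears of C57BL/6 mice, in 1 library per mouse. The 4 groups were wild type mice aged 2 weeks (n = 4) and 10 weeks (n = 3) and *Socs3* cKO mice of those ages (n = 4 at either). In *Socs3* cKO mice the gene for the feedback inhibitor of cytokine signaling SOCS3 is deleted under keratin 5, which is active in basal keratinocytes and in the cells that arise from them, while other cells of the ear keep the gene. The labels give keratinocytes as the source but ear as the tissue, and the extraction also names ear. The samples are treated here as whole ear. In such tissue fewer cells of a type and less RNA per cell cannot be told apart. The library numbers of the groups do not interleave, although wild type replicate 1 at 2 weeks stands apart from the other numbers of its group, so library batch and condition cannot be told apart either.

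Part of the reactive loop is shown for the *Serpinb3* copies because these genes are close relatives and the loop meets the protease. The coding sequences of *Serpinb3b* and *Serpinb3c* were 93.4% identical, those of *Serpinb3a* and *Serpinb3b* 92.6% and those of *Serpinb3a* and *Serpinb3d* 88.8%. The stretches below code for 22 residues of the reactive loop, from its conserved hinge on. They come from the GENCODE annotation of mm9 and are given 5′ to 3′ on the coding strand, from coding base 1006 to 1071 in *Serpinb3a*, *Serpinb3b* and *Serpinb3c* and from 1012 to 1077 in *Serpinb3d*. Capitals mark the bases that are not the same in all 4 genes, which were 33 of the 66.
Serpinb3a: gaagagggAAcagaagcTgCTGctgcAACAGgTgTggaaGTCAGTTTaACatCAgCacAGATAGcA
Serpinb3b: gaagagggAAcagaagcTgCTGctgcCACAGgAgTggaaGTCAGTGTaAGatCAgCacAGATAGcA
Serpinb3c: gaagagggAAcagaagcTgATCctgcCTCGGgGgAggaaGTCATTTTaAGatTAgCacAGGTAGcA
Serpinb3d: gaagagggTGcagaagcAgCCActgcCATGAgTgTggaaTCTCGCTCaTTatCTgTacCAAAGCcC
Every one of these copies was measured separately in the files. Exact 50-base words of their exons that occur more than once in the genome, which is the read length, made up 13.5% of the words of *Serpinb3a*, 16% of *Serpinb3b*, 14.2% of *Serpinb3c* and 13.6% of *Serpinb3d*. Levels of the single *Serpinb3* copies are therefore uncertain, as are those of *Serpinb6c* (11.2%) and *Serpinb1c* (10.1%). These shares do not give the size of the error. It was not estimated and can be larger for a low copy with an abundant relative. The words of *Serpinb2*, *Serpinb5*, *Serpinb7*, *Serpinb9*, *Serpinb11*, *Serpinb12* and *Serpinb13* were all unique (0% repeated).

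The 250 bases before the RefSeq start site were searched on both strands for the AP-1 motif TGANTCA, the STAT motif TTCNNNGAA and the TATA motif TATAAA. The windows came from a RefSeq table of build GRCm38.p6 and were placed in mm9 by exact match. They were found for 23 of the 25 genes, all but *Serpinb13* and *Serpinb1a*. *Serpinb2*, *Serpinb12*, *Serpinb1c*, *Serpinb6a* and *Serpinb9c* had more than 1 window. A gene was counted if any of its windows held the letters, while the shares of all windows are per window. The AP-1 letters stood before 6 of the 10 chromosome 1 genes with a window (*Serpinb2*, *Serpinb5*, *Serpinb7*, *Serpinb8*, *Serpinb11* and *Serpinb12*) and before 0 of the 13 chromosome 13 genes. Of all 32851 windows of the same length in the table, 6.75% held them. The STAT letters stood before 3 of the 23 genes (*Serpinb2*, *Serpinb6a* and *Serpinb9c*), against 7.02% of all windows. The TATA letters stood before 8 of the 23, of which 7 lie on chromosome 1, against 12.4% of all windows. A match is a description of the letters and not a binding site, and the base composition of the windows was not matched. The windows below are those of the genes with the largest rise on chromosome 1 at 2 weeks (*Serpinb7* and *Serpinb2*) and on chromosome 13 (*Serpinb6c*), of *Serpinb8*, which also rose at 10 weeks, and of *Serpinb6a*, whose difference changed with age. They were chosen with their matches known and are printed with AP-1 or STAT matches in capitals.
Serpinb7, chr1:109319016-109319265, plus strand, mm9: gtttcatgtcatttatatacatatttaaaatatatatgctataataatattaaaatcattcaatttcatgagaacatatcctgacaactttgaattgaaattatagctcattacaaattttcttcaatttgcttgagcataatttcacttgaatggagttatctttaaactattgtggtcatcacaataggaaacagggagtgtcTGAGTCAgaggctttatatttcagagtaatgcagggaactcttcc
Serpinb2, chr1:109407750-109407999, plus strand, mm9: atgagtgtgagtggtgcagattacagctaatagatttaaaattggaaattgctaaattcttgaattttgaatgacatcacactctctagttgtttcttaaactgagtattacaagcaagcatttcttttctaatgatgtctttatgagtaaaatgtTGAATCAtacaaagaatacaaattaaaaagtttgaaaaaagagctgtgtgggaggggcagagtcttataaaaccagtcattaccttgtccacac
Serpinb8, chr1:109486333-109486582, plus strand, mm9: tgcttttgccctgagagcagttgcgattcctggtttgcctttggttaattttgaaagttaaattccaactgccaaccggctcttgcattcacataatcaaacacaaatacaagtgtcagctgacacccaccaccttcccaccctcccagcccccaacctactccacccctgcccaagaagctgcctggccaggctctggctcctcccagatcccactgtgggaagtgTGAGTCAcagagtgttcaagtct
Serpinb6c, chr13:33997061-33997310, minus strand, mm9: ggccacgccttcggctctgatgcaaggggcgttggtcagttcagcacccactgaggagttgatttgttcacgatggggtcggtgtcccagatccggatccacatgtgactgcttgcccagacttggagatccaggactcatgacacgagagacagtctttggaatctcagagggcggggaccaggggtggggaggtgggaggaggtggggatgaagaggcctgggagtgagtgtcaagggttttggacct
Serpinb6a, chr13:34094664-34094913, minus strand, mm9: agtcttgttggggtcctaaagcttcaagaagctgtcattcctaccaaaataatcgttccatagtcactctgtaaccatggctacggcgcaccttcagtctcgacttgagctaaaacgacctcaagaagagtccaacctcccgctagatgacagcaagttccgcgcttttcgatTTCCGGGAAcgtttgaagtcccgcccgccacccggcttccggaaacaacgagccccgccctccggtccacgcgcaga
The windows of the *Serpinb3* copies hold neither AP-1 nor STAT letters. The AP-1 match of *Serpinb7* begins at position -45 from the start site, that of *Serpinb2* at -94 and that of *Serpinb8* at -23. The window shown for *Serpinb6a* holds a STAT match at -77, and that of *Serpinb6c* holds neither motif. The window of a further RefSeq start of *Serpinb6a* (chr13:34027953-34028202) also holds neither. In GENCODE the windows of *Serpinb7* and *Serpinb6c* lie within the bounds of the annotated genes, which begin farther upstream. Whether these windows hold exon bases was not tested. A further RefSeq start of *Serpinb2* overlaps the window shown and holds both the same AP-1 match and the STAT match.

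Several facts of the libraries touch the values that follow. Read depth is not given, so no counting error could be attached to a value. The FPKM summed to between 436293 and 671904 per library, and between 1414 and 4423 genes were listed at 0, with the 3 lowest counts of such genes (1414, 2087 and 3176) in wild type mice aged 10 weeks. At 2 weeks the *Socs3* cKO libraries departed from the wild type mean along GC content. Genes in the lowest quintile of GC content (up to 44.7%) lay above it by a median of 0.34 to 0.76 on the log2 scale, and genes in the highest quintile (from 56.3%) below it, with a median of -2.49 in replicate 1 and between -0.64 and -0.55 in the other mice. The 18 *Serpinb* genes that could be tested had a GC content of 39.0 to 50.3% (median 42.2%), against a median of 50.7% for all genes tested. At 10 weeks the lowest quintile lay 0.50 to 0.62 above the wild type mean in *Socs3* cKO. Values after removal of a joint trend along gene length and GC content stand beside results of the *Serpinb* genes. They are not given for proteases, neighbours or other gene lists, and GC content alone was not tested.

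The targeted gene *Socs3* had FPKM of 9.71, 10.2, 10.3 and 10.3 in the wild type at 2 weeks and 1.25, 9.32, 12.6 and 3.51 in *Socs3* cKO, and the groups overlapped (log2(FC) -1.06, SE 0.63, adjusted p = 0.18). Its values at 10 weeks were 2.76, 4.81 and 2.02 in wild type mice compared with 36.5, 29.8, 47.7 and 32.4 in *Socs3* cKO, which goes against the label (log2(FC) 3.54, SE 0.29, adjusted p = 7.2e-05). FPKM of the whole gene does not separate the deleted part, and cells that keep the gene are in the tissue. *Socs3* cKO therefore stands here for the libraries labelled so.

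Some markers of other structures of the ear moved as well, and their part in the *Serpinb* values was not tested. For comparison, 7.24% of all genes tested rose and 7.19% fell at 2 weeks, and 12.5% rose and 2.43% fell at 10 weeks. All 15 hair shaft and inner root sheath markers fell at 2 weeks in the libraries labelled *Socs3* cKO (summed FPKM 11.5 to 76.2, against 2965 to 4319 in the wild type). Of 8 basal keratinocyte markers 1 rose at 2 weeks (summed FPKM 5445 to 7881, against 5408 to 5688) and 2 rose at 10 weeks (6134 to 7439, against 4570 to 5785). Of 11 suprabasal markers 4 rose at 2 weeks (14048 to 16663, against 7758 to 9373), and 1 rose and 1 fell at 10 weeks. Of 8 stress keratinocyte markers 3 rose and 2 fell at 2 weeks, and 2 rose at 10 weeks. The 6 leukocyte markers held 0 DEGs at 2 weeks and 3 at 10 weeks, the 9 macrophage markers 0 and 5, and the neutrophil markers 0 of 1 tested and 0 of 3 tested, with a summed FPKM of at most 13.6 in any mouse.

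The clade was a small part of the ear transcriptome and was higher in the libraries labelled *Socs3* cKO at either age. Summed over the 25 genes, FPKM was 353 to 371 in wild type mice aged 2 weeks and 858 to 1743 in *Socs3* cKO of that age. In wild type mice aged 10 weeks the sum was 399 to 708, and it was 881 to 1120 in *Socs3* cKO. The groups of each age did not overlap. As a share of all FPKM this was 0.0773 to 0.0828% in wild type and 0.179 to 0.259% in *Socs3* cKO mice at 2 weeks. The shares at 10 weeks were 0.0753 to 0.122% and 0.173 to 0.205%, in the same order.

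**Figure D1:**
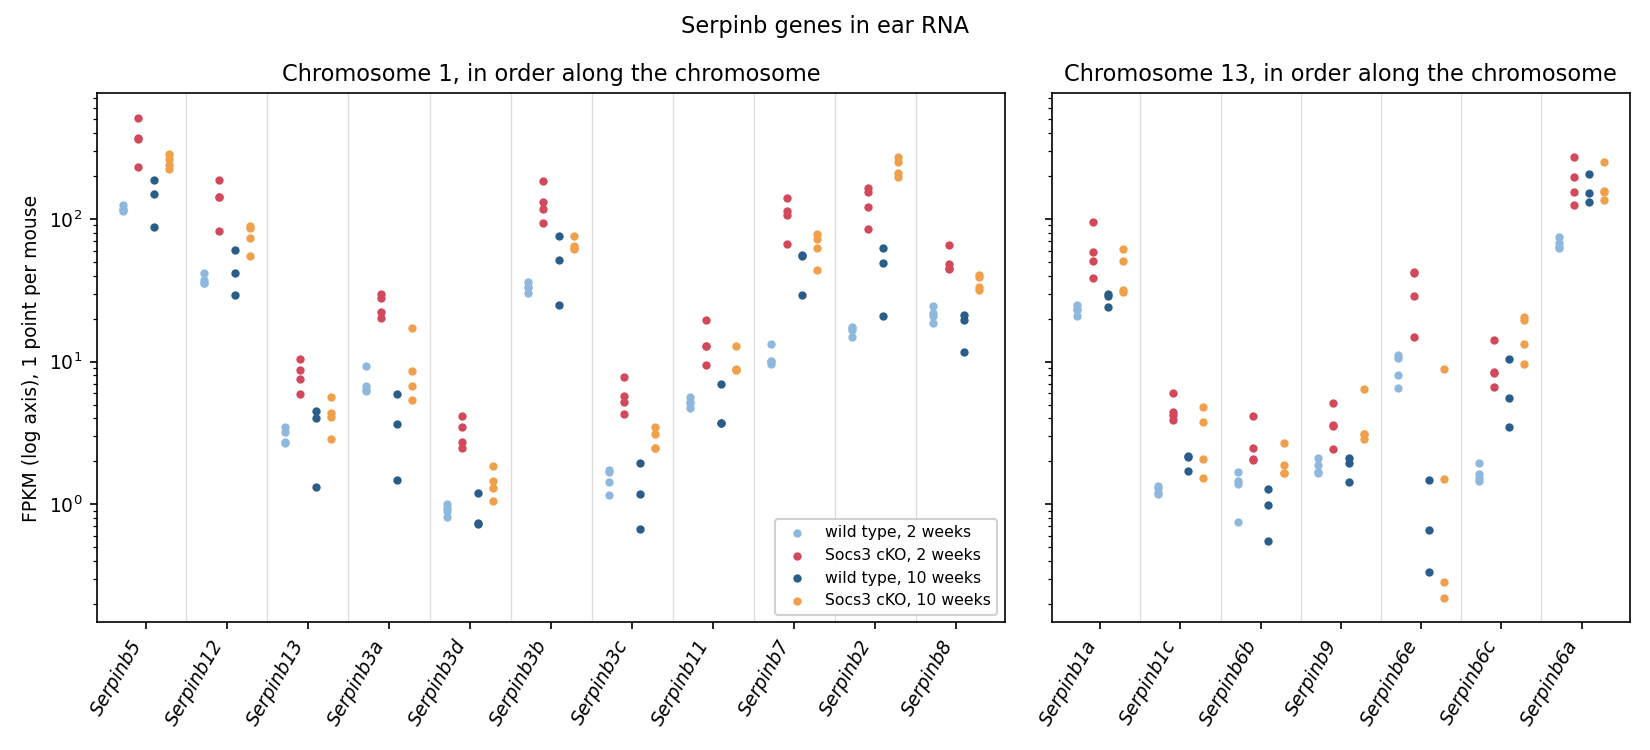
FPKM of the 18 Serpinb genes that could be tested, 1 point per mouse on a log axis, in order along chromosome 1 (left) and chromosome 13 (right). At 2 weeks every Socs3 cKO mouse (red) lies above every wild type mouse (light blue) for each of the 18 genes, while the 10-week groups (orange and dark blue) overlap for 10 of them. The median ratio of the highest to the lowest mouse is smallest in the wild type at 2 weeks (1.25).

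In the wild type at 2 weeks the most abundant member was *Serpinb5*, known as maspin, an epithelial serpin that does not inhibit proteases. Its FPKM, which is a level per length, was 118 ± 5.21 (SD, n = 4) and made up 32.6% of the *Serpinb* sum. *Serpinb6a*, an inhibitor of cathepsin G and trypsin-like enzymes, came next at 67.3 ± 5.48, and *Serpinb12*, an inhibitor of trypsin-like enzymes, at 37.5 ± 2.89. The ranges of these 3 genes did not overlap. *Serpinb3b* (33.2 ± 2.48) overlapped *Serpinb12*, and *Serpinb1a* (23.0 ± 1.68) overlapped *Serpinb8* (21.5 ± 2.49). By 10 weeks the order in the wild type had changed, with *Serpinb6a* at 163 ± 38.2 (n = 3) and *Serpinb5* at 142 ± 50.9 overlapping at the top, followed by *Serpinb3b* at 50.7 ± 25.2, *Serpinb7* at 46.9 ± 15.1, *Serpinb2* at 44.1 ± 21.1 and *Serpinb12* at 43.8 ± 15.6, whose ranges overlapped from each to the next.

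In *Socs3* cKO *Serpinb5* was again the most abundant by its mean at either age, at 370 ± 115 FPKM (n = 4) at 2 weeks and 253 ± 27.6 at 10 weeks. Its range overlapped that of the next gene at either age, which was *Serpinb6a* (187 ± 63.8) at 2 weeks and *Serpinb2* (232 ± 33.8) at 10 weeks. *Serpinb2* made up 4.58% of the *Serpinb* sum in the wild type at 2 weeks, 10.2% in *Socs3* cKO of that age, 7.84% in the wild type at 10 weeks and 23.2% in *Socs3* cKO at 10 weeks.

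The clade was not expressed throughout. A gene was tested where 3 or more of the mice compared reached 1 FPKM, and the same 18 genes passed in each comparison: all 11 of chromosome 1 and 7 of the 14 of chromosome 13. The other 7 stayed low. *Serpinb1b* ranged from 0.414 to 1.65 FPKM over the 15 mice and *Serpinb9b* from 0.0647 to 0.662. *Serpinb9c*, *Serpinb9d*, *Serpinb9e* and *Serpinb9f* were listed at 0 in every mouse but those of the wild type at 10 weeks, where none exceeded 0.187. *Serpinb9g* was also listed at 0 in all but the wild type at 10 weeks and 1 *Socs3* cKO mouse at 2 weeks, and did not exceed 0.0803. The copies of *Serpinb9* on chromosome 13 are close relatives, with 98.7% identity between the coding sequences of *Serpinb9f* and *Serpinb9g*. For these copies 76.9 and 49.6% of the 50-base words occur elsewhere in the genome, so their values are uncertain.

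At 2 weeks the clade was higher in the libraries labelled *Socs3* cKO as a group. Of the 18 genes tested 16 rose (11 of 11 on chromosome 1, 5 of 7 on chromosome 13) and 0 fell, at an adjusted p below 0.01 and an absolute log2(FC) of at least 1. Among all 13524 genes tested 7.24% rose and 7.19% fell. In each of the 18 genes every *Socs3* cKO mouse lay above every wild type mouse, as it did for 22.9% of all genes tested. This count leaves out members that the filter removed, among them *Serpinb1b*, whose groups overlapped (0.414 to 0.825 FPKM in wild type and 0.532 to 1.65 in *Socs3* cKO mice), and *Serpinb3d* passed the filter only through its *Socs3* cKO values. The median log2(FC) was 1.70 over the 18 genes (1.80 on chromosome 1, 1.41 on chromosome 13) and -0.21 over all genes tested. With the trend along gene length and GC content removed, 7 of the 18 passed and the median was 0.73, with all 18 values above 0. Over all genes 7.12% then rose and the median was 0.040. Without *Socs3* cKO replicate 1, whose GC trend was the largest, 16 passed and the median was 1.56, while 6.89% of all genes rose.

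The largest rise was that of *Serpinb7* (chr1:109296232-109349266), a serpin of the upper epidermis whose loss in humans causes the skin disease Nagashima-type palmoplantar keratosis. It had 10.2, 10.1, 9.55 and 13.3 FPKM in the wild type at 2 weeks and 141, 66.8, 106 and 114 in *Socs3* cKO. The lowest *Socs3* cKO mouse was far above the highest wild type mouse, and the log2(FC) was 3.26 (SE 0.23, adjusted p = 7.07e-05). With the length and GC trend removed it was 2.24 and still passed. *Serpinb2* (chr1:109408000-109432055), known as plasminogen activator inhibitor 2, blocks urokinase and tissue plasminogen activator and is made by stressed keratinocytes and macrophages. Its FPKM was 15, 17.2, 16.6 and 17.5 in wild type mice compared with 154, 84.7, 121 and 166 in *Socs3* cKO. The groups were far apart, and only *Serpinb7* had a larger fold change (log2(FC) 2.94, SE 0.21, adjusted p = 7.4e-05; 1.92 without the length and GC trend). Part of the exons of *Serpinb2* (12.4% of their bases) is shared with the pseudogene *Serpinb10-ps* on the same strand.

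*Serpinb5* (chr1:108757750-108779925), the most abundant member, had FPKM of 114, 116, 117 and 125 in wild type mice compared with 513, 232, 363 and 371 in *Socs3* cKO. Even its lowest *Socs3* cKO value lay well above the wild type (log2(FC) 1.59, SE 0.22, adjusted p = 0.00142). *Serpinb12* had 37.6, 35.5, 35.4 and 41.6 in wild type mice compared with 187, 82.8, 143 and 142 in *Socs3* cKO (log2(FC) 1.83, SE 0.23, adjusted p = 0.000897). Replicate 1 was the highest and replicate 2 the lowest *Socs3* cKO mouse for either gene. *Serpinb8* (chr1:109486583-109505486), which inhibits the proprotein convertase furin, had 21.8, 20.9, 18.5 and 24.6 in wild type mice compared with 65.6, 44.3, 45.6 and 48.2 in *Socs3* cKO. Its rise was the smallest of the chromosome 1 genes but also had the smallest error (log2(FC) 1.23, SE 0.16, adjusted p = 0.00113). *Serpinb8* also passed without the length and GC trend (1.03), while *Serpinb5* did not (0.90).

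The *Serpinb3* copies are the mouse relatives of the human squamous cell carcinoma antigens, which inhibit papain-like cysteine proteases and chymotrypsin-like serine proteases. *Serpinb3b*, the most abundant of them, had FPKM of 33.2, 36.2, 33.3 and 30.1 in wild type mice compared with 183, 94.1, 118 and 131 in *Socs3* cKO (log2(FC) 1.95, SE 0.20, adjusted p = 0.000317). *Serpinb3a* had 6.27, 6.22, 6.78 and 9.37 against 27.8, 20.3, 22.3 and 29.9 (log2(FC) 1.80, SE 0.19, adjusted p = 0.000384). All 4 copies rose, although their levels differed: *Serpinb3c* lay at 1.16 to 1.74 in wild type mice compared with 4.28 to 7.78 in *Socs3* cKO (1.85), and *Serpinb3d* at 0.813 to 1.01 and 2.50 to 4.15 (1.68). With the length and GC trend removed the log2(FC) of these copies was between 0.42 and 0.73 and none passed. Their repeated 50-base words leave it untested whether reads of an abundant copy entered the values of the others.

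*Serpinb11* and *Serpinb13* completed the chromosome 1 genes. Mouse *Serpinb11* inhibits trypsin-like enzymes, and *Serpinb13* inhibits the lysosomal cysteine protease cathepsin L. FPKM of *Serpinb11* was 5.21, 4.75, 5.14 and 5.65 in wild type mice compared with 19.7, 9.5, 12.9 and 12.8 in *Socs3* cKO (log2(FC) 1.34, SE 0.22, adjusted p = 0.00276). For *Serpinb13* it was 2.70, 3.23, 2.72 and 3.47 and 5.93, 8.70, 7.51 and 10.5 (log2(FC) 1.38, SE 0.20, adjusted p = 0.00183). *Serpinb13* was the only member for which *Socs3* cKO replicate 1 was the lowest of its group. Neither gene passed once the length and GC trend was removed (0.59 and 0.56).

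On chromosome 13 the largest rise was that of *Serpinb6c* (chr13:33971685-33997577), a low-level copy of the *Serpinb6* group. Its FPKM was 1.53, 1.94, 1.62 and 1.46 in wild type mice compared with 8.34, 6.61, 8.42 and 14.2 in *Socs3* cKO. The groups were well apart (log2(FC) 2.40, SE 0.24, adjusted p = 0.000304), also without the length and GC trend (1.64). *Serpinb6a* (chr13:34009787-34094663) had 67.9, 63.5, 74.8 and 63.0 in wild type mice compared with 272, 126, 196 and 154 in *Socs3* cKO (log2(FC) 1.41, SE 0.23, adjusted p = 0.00274; 1.27 without the length and GC trend). Its exons overlap those of *Nqo2* on the opposite strand in 14.1% of their bases, and the counting is not stated to use strand. *Serpinb6e* (chr13:33924214-33935277) had 6.52, 10.5, 11.1 and 8.04 against 41.7, 28.7, 42.5 and 14.9, with the *Socs3* cKO mice spread widely above the wild type (log2(FC) 1.73, SE 0.35, adjusted p = 0.00666; 0.74 without the length and GC trend).

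The *Serpinb1* genes encode inhibitors of the neutrophil proteases elastase, proteinase 3 and cathepsin G. *Serpinb1a* (chr13:32933961-32943054) had FPKM of 24.9, 22.9, 23.5 and 20.9 in wild type mice compared with 94.5, 38.3, 58.6 and 50.9 in *Socs3* cKO (log2(FC) 1.31, SE 0.25, adjusted p = 0.00563; 0.65 without the length and GC trend). *Serpinb1c* had 1.20, 1.34, 1.29 and 1.18 against 5.98, 3.87, 4.44 and 4.25 (log2(FC) 1.79, SE 0.18, adjusted p = 0.000298; 1.10 without the length and GC trend). Either rise was seen in 4 of 4 mice. The neutrophil markers at 2 weeks summed to 2.55 to 4.26 FPKM in wild type and 2.18 to 5.47 in *Socs3* cKO mice. *Elane*, the gene for neutrophil elastase, had at most 0.109 FPKM at this age. *Prtn3*, the gene for proteinase 3, had 0.269 to 0.711 in wild type and 0.0708 to 0.155 in *Socs3* cKO mice. *Ctsg*, the gene for cathepsin G, had 1.17 to 2.42 and 1.89 to 5.30 (log2(FC) 0.79, SE 0.35, adjusted p = 0.0892). The part of neutrophils in the *Serpinb1* values was not tested.

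*Serpinb6b* and *Serpinb9* missed the thresholds at 2 weeks. *Serpinb9*, the inhibitor of the cytotoxic lymphocyte protease granzyme B, had FPKM of 1.68, 2.1, 1.89 and 1.66 in wild type mice compared with 5.17, 2.42, 3.62 and 3.53 in *Socs3* cKO (log2(FC) 0.93, 95% interval 0.38 to 1.47, adjusted p = 0.0156). *Serpinb6b* had 0.75, 1.70, 1.45 and 1.38 against 4.13, 2.03, 2.48 and 2.07 (log2(FC) 0.96, 95% interval 0.25 to 1.67, adjusted p = 0.0344). The groups did not overlap for either gene. The calls on chromosome 13 were less sure than their count of 5 shows: leaving out any 1 of wild type replicates 1, 2 and 4 or *Socs3* cKO replicate 3 left 2 of them, and leaving out wild type replicate 3 left 3. *Serpinb1c* and *Serpinb6c* were called in each of these fits. Over all genes tested 3.66 to 4.09% rose in these fits, against 7.24% with every mouse. On chromosome 1 the count stayed at 10 or 11 whichever mouse was left out.

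**Figure D2:**
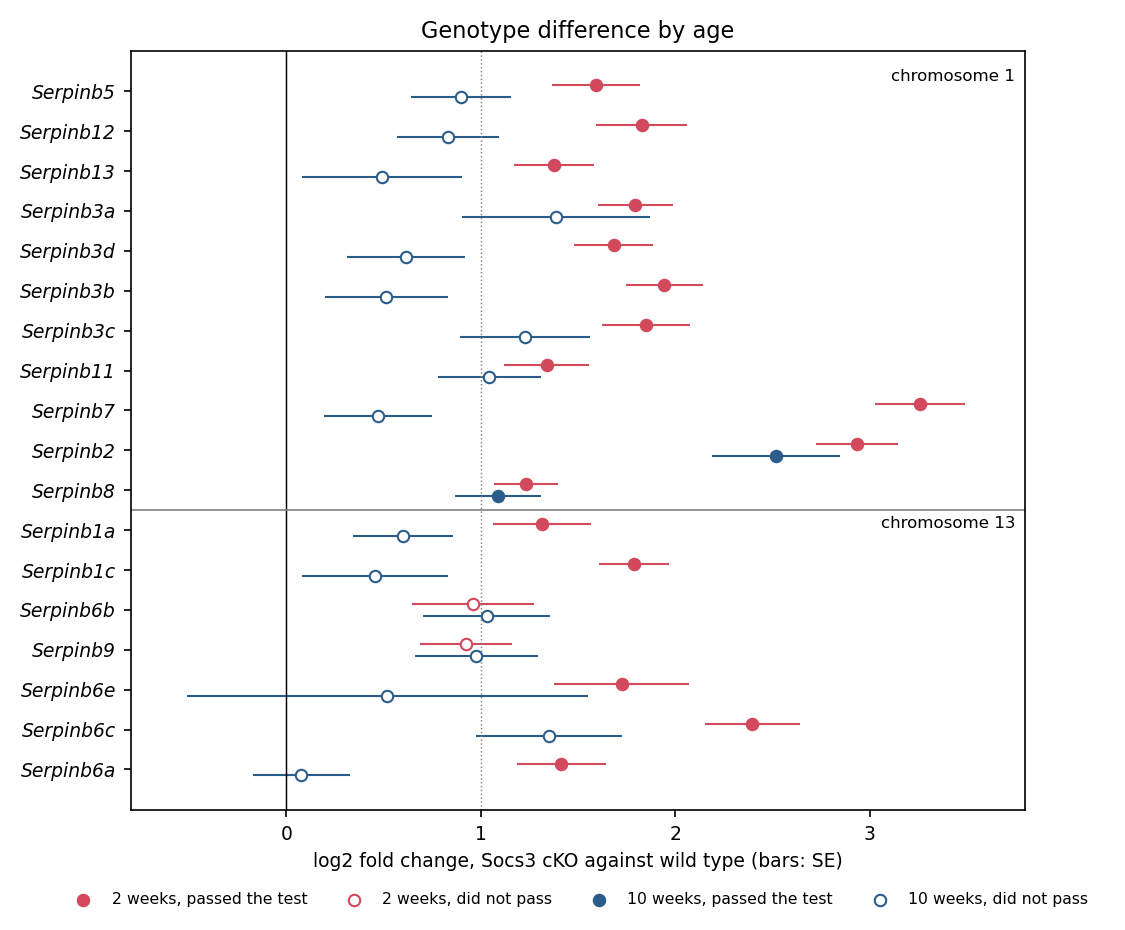
Log2 fold change of each of the 18 genes, Socs3 cKO over wild type, at 2 weeks (red) and at 10 weeks (blue), with the standard error as a bar and filled points for genes past both thresholds. At 2 weeks 16 of 18 points are filled and Serpinb7 (3.26) and Serpinb2 (2.94) lead, whereas at 10 weeks only Serpinb2 (2.52) and Serpinb8 (1.09) are filled. The dotted line marks a log2 fold change of 1.

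At 10 weeks fewer members of the clade passed. Only *Serpinb2* and *Serpinb8* of the 18 genes rose (2 of 11 on chromosome 1, 0 of 7 on chromosome 13) and 0 fell, while 12.5% of all 13105 genes tested rose and 2.43% fell. Every *Socs3* cKO mouse lay above every wild type mouse for 8 of the 18 genes (5 on chromosome 1, 3 on chromosome 13), against 31.2% of all genes tested. The median log2(FC) was 0.87 over the 18 genes (0.90 on chromosome 1, 0.60 on chromosome 13) and 0.31 over all genes. *Serpinb3c*, *Serpinb3d* and *Serpinb6b* passed the filter at this age only through their *Socs3* cKO values. Over all genes 14.9% were called in either direction at 10 weeks and 14.4% at 2 weeks. The standard errors of the 18 genes had a median of 0.32, against 0.23 at 2 weeks.

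*Serpinb2* kept a large difference. Its FPKM at 10 weeks was 62.4, 48.9 and 21.0 in wild type mice compared with 211, 250, 270 and 197 in *Socs3* cKO. The groups did not overlap although the wild type mice spread 2.97-fold (log2(FC) 2.52, SE 0.33, adjusted p = 0.00081). *Serpinb2* was called under every alternative setting tried at 10 weeks, including the removal of the length and GC trend (2.13) and values relative to 8 basal keratinocyte markers (1.5). *Serpinb8* had 21.1, 19.6 and 11.7 in wild type mice compared with 33.6, 39.2, 40.5 and 31.9 in *Socs3* cKO (log2(FC) 1.09, SE 0.22, adjusted p = 0.00545). This call was lost without wild type replicate 3 (0.83) or without *Socs3* cKO replicate 1, 2 or 3, without the length and GC trend (0.54) and relative to the basal markers (0.073).

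Among the genes that missed the thresholds at 10 weeks were members without overlap between the groups. *Serpinb5* had FPKM of 188, 149 and 87.3 in wild type mice compared with 223, 261, 240 and 287 in *Socs3* cKO (log2(FC) 0.90, SE 0.26, adjusted p = 0.0219). *Serpinb11* had 6.98, 3.74 and 3.74 against 8.68, 8.82, 8.72 and 12.8 (log2(FC) 1.05, SE 0.27, adjusted p = 0.0138). The other 4 genes without overlap were *Serpinb3c* (1.23), *Serpinb6b* (1.03), *Serpinb9* (0.98) and *Serpinb1a* (0.60). *Serpinb1a* had 28.9, 29.8 and 24.3 in wild type mice compared with 30.8, 31.8, 50.9 and 61.4 in *Socs3* cKO, so that 2 of the *Socs3* cKO mice were close to the wild type.

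Wild type replicate 3 was the lowest of its group in 15 of the 18 genes, and several groups overlapped because of the other wild type mice. *Serpinb7*, the gene that led at 2 weeks, had FPKM of 56.0, 55.3 and 29.4 in the wild type at 10 weeks and 62.1, 72.6, 43.5 and 77.8 in *Socs3* cKO (log2(FC) 0.47, SE 0.28, 95% interval -0.15 to 1.09, adjusted p = 0.199). *Serpinb6a* had 206, 132 and 152 against 154, 136, 157 and 251, with the groups intermixed (log2(FC) 0.078, 95% interval -0.48 to 0.63, adjusted p = 0.82). *Serpinb3b* (51.9, 75.3 and 24.9 against 61.4, 75.5, 62.5 and 64.7) and *Serpinb12* (60.2, 41.8 and 29.3 against 54.9, 73.8, 86.4 and 89.2) overlapped as well. *Serpinb6c* had 10.4, 3.46 and 5.52 against 20.7, 19.5, 13.3 and 9.61 (log2(FC) 1.35, SE 0.38, adjusted p = 0.0203). The estimates of all 18 genes were above 0 on the deposited scale, but 11 of them were below 0 relative to the basal keratinocyte markers, which were themselves higher in *Socs3* cKO (median log2(FC) 0.72 over the 8 markers).

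Whether the difference between genotypes changed from 2 to 10 weeks was tested by the interaction. It was negative for 2 of the 18 genes at an adjusted p below 0.01 and positive for 0, while it was negative for 7.05% of all 13937 genes tested and significant in either direction for 25.6%. The median over the 18 genes was -0.80, against 0.55 over all genes. With the trend along gene length and GC content removed these medians were -0.37 and -0.096, and 12 of the 18 values were below 0. Under median-of-ratios scaling they were -1.26 and 0.099. *Serpinb7* had the largest change, with an interaction of -2.79 on the log2 scale (SE 0.39, adjusted p = 0.000186). This call held under all alternatives tried. For *Serpinb6a* the interaction was -1.34 (SE 0.35, adjusted p = 0.00832), and this call was lost without any of 10 of the 15 mice in turn. *Serpinb3b* (-1.43, adjusted p = 0.0109), *Serpinb1c* (-1.33, adjusted p = 0.0207) and *Serpinb3d* (-1.07, adjusted p = 0.0211) missed the threshold. For *Serpinb2* the interaction was -0.42 (95% interval -1.31 to 0.48) and for *Serpinb8* -0.14 (95% interval -0.75 to 0.46), so the data do not resolve a change of their difference with age.

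**Figure D3:**
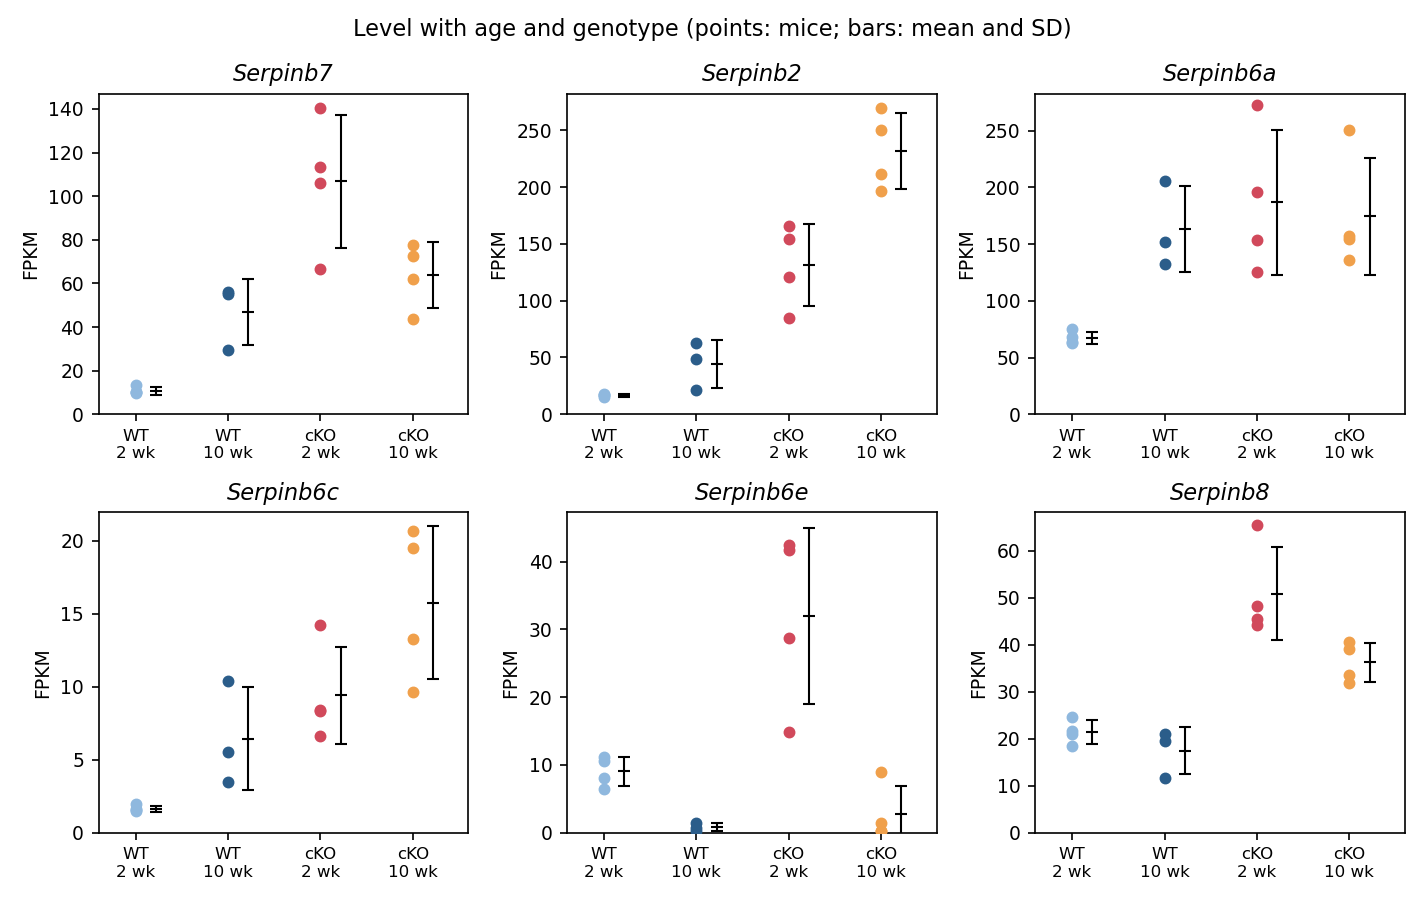
FPKM of 6 Serpinb genes in the 4 groups, with 1 point per mouse and the mean and SD beside the points; each panel has its own linear axis from 0. Mean Serpinb7 is 10.8 and 46.9 in the wild type at 2 and 10 weeks and 107 and 64.0 in Socs3 cKO, Serpinb2 is highest in Socs3 cKO at 10 weeks (232), and Serpinb6e is lowest at 10 weeks in either genotype.

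The wild type itself changed with age, and the comparisons with age use the same mice as those above. From 2 to 10 weeks 4 of the 18 genes rose and 1 fell in the wild type, while 6.18% of all 13937 genes rose and 19.4% fell. *Serpinb7* rose the most, from 10.8 ± 1.71 to 46.9 ± 15.1 FPKM (log2(FC) 2.07, SE 0.28, adjusted p = 7.54e-05), and the lowest mouse at 10 weeks (29.4) was above the highest at 2 weeks (13.3). *Serpinb6c* rose from 1.64 ± 0.212 to 6.45 ± 3.54 (log2(FC) 1.78, SE 0.35, adjusted p = 0.00115). *Serpinb2* rose from 16.6 ± 1.13 to 44.1 ± 21.1 (1.27, SE 0.31, adjusted p = 0.00408) and *Serpinb6a* from 67.3 ± 5.48 to 163 ± 38.2 (1.26, SE 0.26, adjusted p = 0.00149). The ages did not overlap for these 4 genes and for *Serpinb1c* (higher at 10 weeks, as for 17.3% of all genes), nor for *Serpinb6e* and *Serpinb3a* (lower, as for 49.5%). Without wild type replicate 1 at 10 weeks only *Serpinb7* and *Serpinb6c* passed (2 of 18), and the call of *Serpinb2* was also lost without wild type replicate 2 at 10 weeks (1.13) or replicate 1 at 2 weeks (1.22). It was lost as well with the trend along gene length and GC content removed (0.98).

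*Serpinb6e* went the other way. At 2 weeks wild type mice had 6.52 to 11.1 FPKM, and at 10 weeks 0.659, 1.48 and 0.333 (log2(FC) -3.48, SE 0.88, adjusted p = 0.00512). This call was lost when any of wild type replicates 1 and 3 at 10 weeks and 2, 3 and 4 at 2 weeks was left out (log2(FC) -3.52 to -3.03). It was also lost with the replicate block (-3.27), under median-of-ratios scaling (-3.12) and relative to the basal markers (-2.68). In *Socs3* cKO it was 14.9 to 42.5 at 2 weeks and 0.284, 0.219, 1.5 and 8.94 at 10 weeks (-4.68, SE 0.81, adjusted p = 0.00226). The mice of the 2 ages did not overlap in either genotype, but the spread among the *Socs3* cKO mice at 10 weeks was 40.8-fold, the widest of any *Serpinb* gene in any group. The hair markers, which also fell with age in the wild type, summed to 11.2 to 13.3 FPKM at 10 weeks and 2965 to 4319 at 2 weeks, and the *Socs3* cKO mice at 2 weeks, with the highest *Serpinb6e*, had a sum of 11.5 to 76.2. Whether *Serpinb6e* and hair share a source was not tested.

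In *Socs3* cKO 2 of the 18 genes fell from 2 to 10 weeks and 0 rose, while 1.53% of all genes fell and 2.01% rose. The ages did not overlap for 7 genes that were lower at 10 weeks (*Serpinb3a*, *Serpinb3b*, *Serpinb3c*, *Serpinb3d*, *Serpinb6e*, *Serpinb8* and *Serpinb13*) and for *Serpinb2*, which was higher, against 6.79 and 7.71% of all genes. Beside *Serpinb6e* the gene called was *Serpinb3d*, from 3.21 ± 0.751 to 1.41 ± 0.339 FPKM (log2(FC) -1.13, SE 0.23, adjusted p = 0.00699), and its call was lost when any 1 of 6 of the 8 mice was left out. Removal of the length and GC trend (-0.72), scaling to the basal markers (-1.48) and the replicate block (-1.13) were among the settings that also lost it. *Serpinb7* had 107 ± 30.5 at 2 weeks and 64.0 ± 15.2 at 10 weeks (-0.72, 95% interval -1.28 to -0.16, adjusted p = 0.0973). *Serpinb2* had 131 ± 36.4 and 232 ± 33.8 (0.85, 95% interval 0.24 to 1.46, adjusted p = 0.0729). The median over the 18 genes was -0.60, against 0.11 over all genes tested. With the trend along gene length and GC content removed these medians were -0.44 and -0.025.

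The spread between mice differed by group and was shared by the members. The ratio of the highest to the lowest mouse had a median over the 18 genes of 1.25 in the wild type at 2 weeks, 2.11 in the wild type at 10 weeks, 2.05 in *Socs3* cKO at 2 weeks and 1.78 in *Socs3* cKO at 10 weeks. *Socs3* cKO replicate 1 at 2 weeks was the highest of its group in 13 of the 18 genes and replicate 2 the lowest in 16. The total FPKM of these libraries was 671904 and 480380, the highest and the lowest of the group. At 10 weeks *Socs3* cKO replicate 4 was the highest in 10 of the 18 genes.

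Members of either chromosome had positive differences at 2 weeks. The summed FPKM of chromosome 1 was 248 to 273 in wild type mice compared with 650 to 1308 in *Socs3* cKO at 2 weeks, and that of chromosome 13 was 98.1 to 116 compared with 208 to 434. At the later age chromosome 1 had 211.5 to 456 in wild type mice compared with 668 to 799 in *Socs3* cKO, without overlap, while chromosome 13 had 173 to 252 and 195 to 346, with overlap. The log2(FC) of the younger mice ranged from 1.23 to 3.26 on chromosome 1 and from 0.93 to 2.40 on chromosome 13, and that of the older mice from 0.47 to 2.52 and from 0.078 to 1.35. These ranges overlapped, and no test of the difference between the chromosomes was made.

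Genes next to the clusters did not all follow them. Of the 3 genes on either side of the chromosome 1 cluster (*Bcl2*, *Kdsr* and *Vps4b* before it, and *Cdh7*, *Cdh19* and *Dsel* after it) 5 could be tested, and 1 rose at 2 weeks and 2 at 10 weeks. Over all genes tested 7.24% rose at 2 weeks and 12.5% at 10 weeks. *Cdh19*, a cadherin of Schwann cells, rose at either age (log2(FC) 1.68, SE 0.22, adjusted p = 0.00109 at 2 weeks, and 2.82, SE 0.35, adjusted p = 0.000615 at 10 weeks), and *Dsel* at 10 weeks (1.07, SE 0.21, adjusted p = 0.00472). The apoptosis inhibitor *Bcl2* had -0.59 (adjusted p = 0.0415) at 2 weeks. Around the chromosome 13 cluster 0 of the 6 genes tested at 2 weeks (*Gmds*, *Mylk4*, *Wrnip1*, *Nqo2*, *Ripk1* and *Bphl*) and 0 of the 5 tested at 10 weeks passed. *Mylk4* narrowly missed at 2 weeks (log2(FC) -1.39, SE 0.32, adjusted p = 0.0103). So did *Ripk1* at 10 weeks (0.99, SE 0.22, adjusted p = 0.00734), whose exons overlap 4.46% of the exon bases of *Serpinb6a* on the opposite strand. *Nqo2*, which shares exon bases with *Serpinb6a*, had a log2(FC) of 0.027 (SE 0.23) at 2 weeks.

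Proteases that clade B serpins are known to inhibit were also read. Of 20 such genes in the files 15 could be tested at 2 weeks, of which 2 rose and 1 fell, and the median log2(FC) was 0.49. Among all genes tested 7.24% rose and 7.19% fell at 2 weeks, and 12.5% rose and 2.43% fell at 10 weeks. *Ctss*, the gene for cathepsin S, rose from 38.3 ± 5.03 to 104 ± 31.2 FPKM (log2(FC) 1.40, SE 0.22, adjusted p = 0.00237). *Ctsl*, the gene for cathepsin L, which *Serpinb13* inhibits, rose from 147 ± 5.79 to 334 ± 72.8 (1.16, SE 0.17, adjusted p = 0.00193). *Plat*, the gene for tissue plasminogen activator, which *Serpinb2* inhibits, fell from 14.8 ± 0.564 to 5.65 ± 0.794 (-1.38, SE 0.15, adjusted p = 0.000356). *Plau*, the gene for urokinase, the other target of *Serpinb2*, lay at 17.7 to 19.9 in wild type mice compared with 17.1 to 23.7 in *Socs3* cKO. At 10 weeks only *Casp1* of the 15 tested rose (1.63, SE 0.31, adjusted p = 0.00396; median 0.45), a gene that encodes the protease which activates interleukin-1 beta. *Furin*, the target of *Serpinb8*, lay at 45.7 to 47.9 in the wild type at 2 weeks and at 1.44 to 18.8 in *Socs3* cKO, where the lowest value was that of replicate 1, and it missed the threshold (log2(FC) -2.26, SE 0.75, adjusted p = 0.0368). The part of the trend along gene length and GC content in these protease values was not tested.

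Serpins of the other clades, which are mostly secreted, moved in either direction at 2 weeks. Of 34 in the files 15 could be tested at 2 weeks, of which 6 rose and 3 fell (median log2(FC) 0.85, range -2.63 to 3.17). At 10 weeks 13 could be tested, of which 4 rose and 0 fell (median 1.14). The shares over all genes tested were 7.24% up and 7.19% down at 2 weeks, and 12.5% up and 2.43% down at 10 weeks. The summed FPKM of these genes was 836 to 1001 in wild type mice compared with 853 to 926 in *Socs3* cKO at 2 weeks, with overlap.

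**Figure D4:**
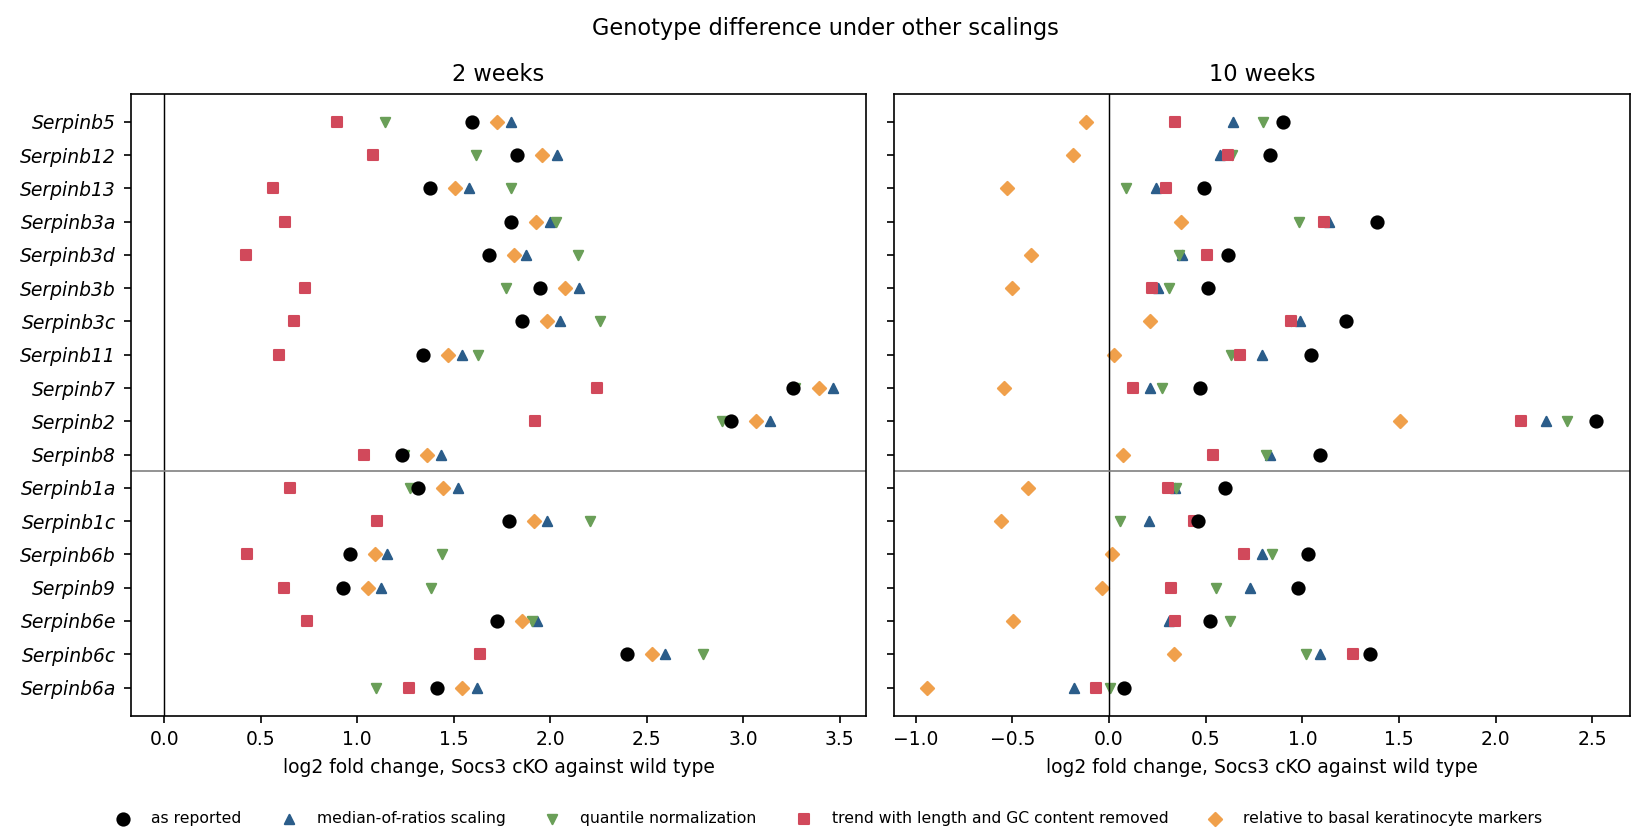
Log2 fold change, Socs3 cKO over wild type, of the 18 genes at 2 weeks (left) and 10 weeks (right), as reported (black) and under 4 other scalings; chromosome 1 lies above the grey line and chromosome 13 below it, and some points hide others. At 2 weeks all points lie above 0, with the smallest value of each gene but Serpinb6a where the trend along length and GC content was removed; at 10 weeks 11 genes lie below 0 relative to the basal keratinocyte markers and Serpinb2 is the farthest from 0 under each scaling.

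The scale of the values bears on the size of these differences. Median-of-ratios scaling moved the median log2(FC) of all genes at 2 weeks from -0.21 to -0.0087 and quantile normalization moved it to 0.047, and the median of the 18 *Serpinb* genes was then 1.90 and 1.78, with 16 called under either. Of all genes 8.81 and 10.3% rose. At 10 weeks the median of all genes moved from 0.31 to 0.058 and -0.024, and that of the 18 genes from 0.87 to 0.61 and 0.63, with 1 called under either (*Serpinb2*). Of all genes 8.19 and 7.04% rose. *Serpinb6a* at 10 weeks was below 0 under median-of-ratios scaling (-0.18). Relative to the 8 basal keratinocyte markers 10 of the 18 genes were called at 2 weeks (median 1.83) and 1 at 10 weeks (median -0.15, against -0.70 over all genes). On that scale 3.45% of all genes rose at 2 weeks and 2.77% at 10 weeks.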

How the data were processed

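The ear RNA of 15 mice was read as single 50-base reads. According to the submitters' processing notes the authors used TopHat2 (version 2.1.0), Cufflinks and build mm9, and they deposited 1 FPKM value per gene, normalized for gene length and mapped reads. Read counts were not used here, depth is unknown, and no counting error could be derived. No 2 files shared more than 1 identical value above 0.

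Groups and replicate numbers came from the labels. Nothing says that RNA was pooled, and p-values measure the spread between these samples. Values were tested as log2(FPKM + 0.1), on which fold changes of low genes are understated, with limma (version 3.58.1, R 4.3.3), a trend in the prior variance and 2-sided Benjamini-Hochberg adjustment over all genes that reached 1 FPKM in 3 or more of the samples compared. Genotypes were compared within each age. Interaction and age were fitted on all 4 groups. DEGs had an adjusted p below 0.01 and an absolute log2(FC) of at least 1 (interaction: adjusted p alone). Named were all *Serpinb* genes, *Socs3*, the 3 neighbours on either side of each cluster and up to 4 called target proteases per age. Some further genes (*Plau*, *Furin*, *Elane*, *Prtn3* and *Ctsg*) were chosen after their values were seen. The members and gene lists were chosen with earlier results of these data known.

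Alternatives were pseudocounts of 1 and 0.01, no filter, a stricter filter, a replicate block, a constant prior variance, quantile normalization, median-of-ratios scaling, other samples in the fit and omission of single mice. Removal of the trend with length and GC content (splines with 4 degrees of freedom), scaling to 8 basal keratinocyte markers and leaving out pairs of mice were chosen after seeing the data. Positions, exons and coding sequences came from GENCODE vM1 on mm9, and start sites from RefSeq (GRCm38.p6). Tested on simulated data, the limma step recovered 97 of 100 planted changes of 1.5 and 99 of 100 of 3 at 2 weeks, and 38 and 83 of 100 at 10 weeks. Recovery at the spread of the *Socs3* cKO mice, and for *Serpinb* genes of low FPKM, was not tested. At 2 weeks the median ratio of the highest to the lowest mouse was 2.05 in *Socs3* cKO and 1.25 in the wild type. Python 3.11.15 was used for the rest.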

Additional observations from a re-analysis of the deposited data

Results flagged for a closer look

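A few values stood apart from the rest of their group. In 54 groups of 4 mice (18 genes in 3 groups) the gap of the extreme mouse was compared with the range of the group, and 4 were past the 95% limit of Dixon's criterion, which chance passes in about 1 in 20 groups. All 4 were the highest mouse of their group. In *Socs3* cKO at 10 weeks these were *Serpinb11* at 12.8 FPKM (the other mice 8.68 to 8.82), *Serpinb9* at 6.47 (2.87 to 3.13) and *Serpinb6e* at 8.94 (0.219 to 1.5), all in replicate 4. In the wild type at 2 weeks it was *Serpinb7* at 13.3 in replicate 4 (9.55 to 10.2).

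The difference between genotypes changed between the ages for *Serpinb7* (interaction -2.79 on the log2 scale, adjusted p = 0.000186) and *Serpinb6a* (-1.34, adjusted p = 0.00832) in limma's fit of all 4 groups. For *Serpinb7* the genotypes were separate at 2 weeks and overlapped at 10 weeks, as they did for *Serpinb6a*. Both genes rose with age in the wild type.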

How the results depend on the processing

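At 2 weeks no *Serpinb* gene changed direction under any alternative. The count of 16 was 12 to 17 when single mice were left out, 7 with the trend with length and GC content removed and 10 relative to the basal markers. The shares of all genes that rose were 3.66 to 10.9%, 7.12% and 3.45%, in the same order. On chromosome 1 the count was 10 to 11 without single mice and 4 without the trend. On chromosome 13 it was 2 to 6 without single mice, 3 with the replicate block, 3 without the trend and 2 relative to the basal markers. At 10 weeks 5.01 to 18% of all genes rose without single mice, and the count of 2 was 1 to 3. It was 1 under median-of-ratios scaling, quantile normalization, removal of the trend, scaling to the basal markers and without wild type replicates 1 and 3 (the lone wild type mouse then being assumed to vary like the others), and 5 with the other samples in the fit. The interaction count of 2 was 1 to 4 without single mice, 4 with a pseudocount of 1, 5 under median-of-ratios scaling, 8 under quantile normalization, 1 with a constant prior variance and 5 relative to the basal markers. Among 13937 genes the interaction was negative for 983 as reported. With median-of-ratios scaling, quantile normalization and the basal markers it was negative for 1664, 2269 and 1701. The count with age in the wild type (5) was 2 to 5 without single mice and 2 without wild type replicates 1 and 3. In *Socs3* cKO it was 2, and 1 to 3 without single mice, 1 with a pseudocount of 1, no filter or the replicate block, and 0 with the other samples in the fit or without *Socs3* cKO replicates 1 and 2 at 2 weeks.

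Directions that reversed were all of values that had not passed. *Socs3* at 2 weeks was 0.10 without the trend. The log2(FC) at 10 weeks relative to the basal markers was -0.12 for *Serpinb5*, -0.18 for *Serpinb12*, -0.53 for *Serpinb13*, -0.42 for *Serpinb1a*, -0.56 for *Serpinb1c*, -0.50 for *Serpinb3b*, -0.40 for *Serpinb3d*, -0.94 for *Serpinb6a*, -0.50 for *Serpinb6e*, -0.54 for *Serpinb7* and -0.038 for *Serpinb9*. *Serpinb6a* was -0.18 under median-of-ratios scaling, -0.11 with the replicate block, -0.069 without the trend, and -0.11 to 0.26 without single mice. *Serpinb6e* was -0.47 with the replicate block. Without wild type replicates 1 and 3 *Serpinb13* was -0.14, *Serpinb3b* -0.19 and *Serpinb6e* -0.45, and without single mice *Serpinb13* was -0.052 to 0.81. The causes were not tested.

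Mice with the same replicate number did not deviate together (r from -0.21 to 0.14 over 7 pairs). The numbers thus gave no sign of a pairing, which so few mice cannot exclude. With the replicate block 13 of 18 genes were called at 2 weeks and 3 at 10 weeks, while 2.96 and 12.3% of all genes rose. Depth is unknown, so the counting error of members near 1 FPKM could not be stated.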

Other observations

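Marker lists that stand in no comparison above were also read. The shares of all genes tested to set beside them were 7.24% up and 7.19% down at 2 weeks. At 10 weeks they were 12.5% up and 2.43% down. Of the sebaceous gland markers 4 of 6 rose at 2 weeks and 3 of 6 at 10 weeks. Of the skeletal muscle markers 5 of 8 rose at 2 weeks and 2 of 8 fell at 10 weeks. Langerhans cell markers rose in 2 of 6 and 3 of 6, mast cell markers in 1 of 6 tested and 1 of 7, fat cell markers in 1 of 7 and 2 of 7. T and NK cell markers rose in 2 of 6 tested at 2 weeks, where 1 fell, and in 1 of 7 at 10 weeks. Fibroblast markers rose in 1 of 6 and fell in 3 of 6 at 2 weeks, and rose in 1 of 6 at 10 weeks. Endothelial markers rose in 1 of 6 and 3 of 6. Of 6 cartilage markers tested 1 rose and 2 fell at 2 weeks, and 2 rose at 10 weeks. Their part in the *Serpinb* values was not tested.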
